A study of Mus musculus with 7 samples.

Results

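The extracellular matrix genes described here are the collagen chains, laminin chains, matrix metalloproteinases, tissue inhibitors of metalloproteinases and lysyl oxidases of mouse liver. They were chosen by gene symbol alone (Col, Lama, Lamb, Lamc, Mmp, Timp, Lox and Loxl genes), which gave 87 of the 21706 genes in the expression table. Hepatic mRNA was sequenced from male C57BL/6 mice, a wild-type inbred strain, that were 8 weeks old and received intraperitoneal injections of an oligonucleotide for 2 weeks. A control oligonucleotide (Control Oligo) was given to 4 mice and tsRNA-Glu-CTC Oligo-1, a synthetic copy of a fragment of the transfer RNA for glutamate, to 3 mice. All mice were fed semisynthetic chow with little fat and little cholesterol, per the study's methods, which describe each library as 1 mouse. The comparison asks which matrix genes differed in liver when tsRNA-Glu-CTC was supplied.

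The matrix of the liver has an interstitial and a basement membrane part. Fibrillar collagens such as types I, III and V are secreted as triple helices, trimmed and assembled into fibrils, and lysyl oxidases cross-link them. Type IV collagen and the laminins form the sheets of basement membranes, which are sparse along hepatic sinusoids and well formed around vessels and bile ducts. Matrix metalloproteinases cut both kinds of matrix and are held in check by tissue inhibitors, and most of these genes are read mainly in stellate cells, portal fibroblasts, endothelial cells and macrophages rather than in hepatocytes.

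RNA-seq analysis showed that 17 of the 25 tested matrix genes were higher in controls 1 and 4 than in the other 5 livers. Of all tested genes, 51.5% did the same. Col18a1 and Col27a1 were lowest in these 2 control livers, and the remaining tested members followed neither pattern. Values are TPM, the length-corrected share of a transcript in its library. The summed TPM of all 87 genes was 464 and 471 in controls 1 and 4, 283 and 292 in controls 2 and 3, and 272, 298 and 262 in oligo-1 replicates 1, 2 and 3. These 2 control libraries stood apart across the genes of the table and not in these members alone. Over 10455 genes their log2 values correlated at 0.988 with each other and between 0.928 and 0.947 with the other 5 libraries, which correlated among themselves between 0.965 and 0.987. The fold change of each tested member is therefore also given without controls 1 and 4, an alternative that leaves 2 control libraries.

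No tested matrix gene passed the threshold between oligo-1 and control mice after adjustment over all genes. A total of 25 members reached 1 TPM in at least 3 libraries and entered the limma fit of log2(TPM + 1) over 10455 genes. At a Benjamini-Hochberg adjusted p below 0.05, 0 members and 0% of all genes were called, and the smallest adjusted p among members was 0.768 (limma). At an unadjusted p below 0.05, Col27a1 was higher and Col4a1 was lower with oligo-1, 1 member each way, where 1.81% of all tested genes were called higher and 4.25% lower. After TMM-type scaling (a trimmed mean of log ratios to a reference library) 502 of all genes were higher and 394 lower, in place of 189 and 444, and so were 3 members each way. The thresholds of the study, p below 0.01 with a fold above 1.5, which it set on edgeR results, were applied here to the limma fit of TPM. They called 0 of the 25 tested members, against 0.641% of all genes higher and 0.832% lower. The study's own edgeR calls can differ from these and are not reported here. In 0 of the 25 tested members did the 3 oligo-1 values lie wholly above or wholly below the 4 control values, whereas 2.00% of all tested genes did so with oligo-1 higher and 4.98% with oligo-1 lower.

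In most tested members the extreme values belonged to controls 1 and 4. In 17 of the 25 tested members both control 1 and control 4 lay above all other 5 libraries, and 51.5% of all tested genes did the same. Col18a1 and Col27a1 were the 2 members in which both lay below the other 5, against 4.45% of all genes. Over all 7 libraries 19 tested members had a negative and 6 a positive log2 fold change, where 73.6% of all tested genes were negative, and their median was -0.50 beside -0.16 over all tested genes. Without controls 1 and 4 the signs were 16 positive and 9 negative, where 58.6% of all tested genes were positive, with a median of 0.14 beside 0.06. In that fit Col15a1, Col5a3 and Mmp23 were higher with oligo-1 at an unadjusted p below 0.05, 3 of 25 beside 6.97% of all genes, and 0 members were lower beside 2.75%. The smallest adjusted p among members was then 0.391 (limma). That fit kept the genes that passed the filter over all 7 libraries. Mmp23 passed it only through controls 1 and 4 and oligo-1 replicate 1.

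**Figure D1:**
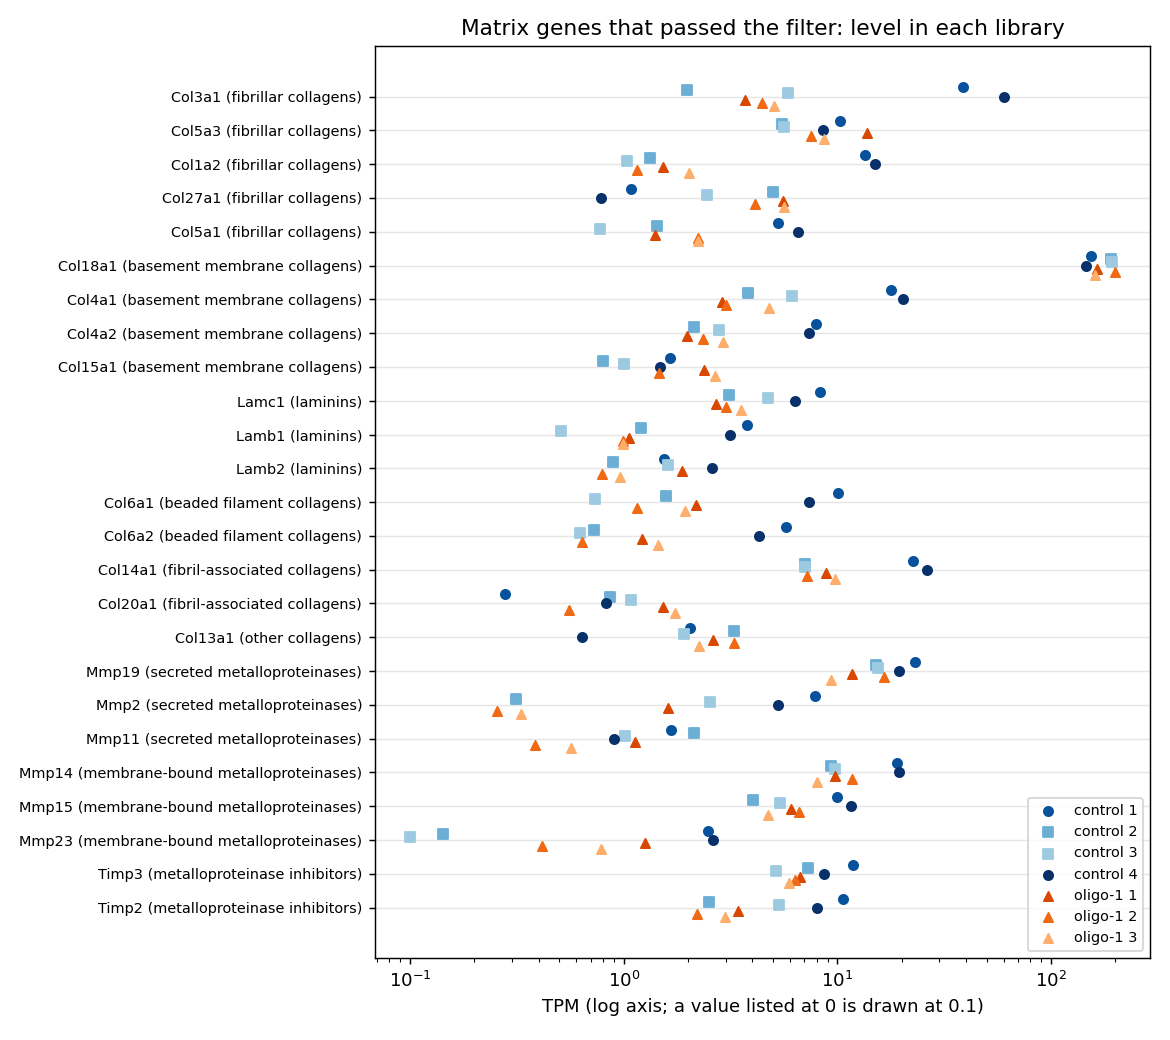
Level of the 25 matrix genes that passed the filter, in TPM on a log axis, with 1 point for each library (blue, control oligo; orange, oligo-1). Controls 1 and 4, drawn as dark circles, lie to the right of the other 5 libraries in 17 genes and to their left in Col18a1 and Col27a1.

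Of the 62 members that were not tested, 9 were listed at 0 in all libraries: Col2a1, Col6a4, Col9a1, Col19a1, Col26a1, Mmp1a, Mmp1b, Mmp10 and Mmp20. A further 38 were above 0 but below 1 TPM everywhere. The other 15 reached 1 TPM in at least 1 library, and 14 of these did so only in control 1, control 4 or both. Lamb3 was the exception, at 0.73 to 1.06 TPM over all 7 libraries. The untested members are named by their values, which were seen before they were chosen, except Col1a1 and Timp1.

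**Figure D2:**
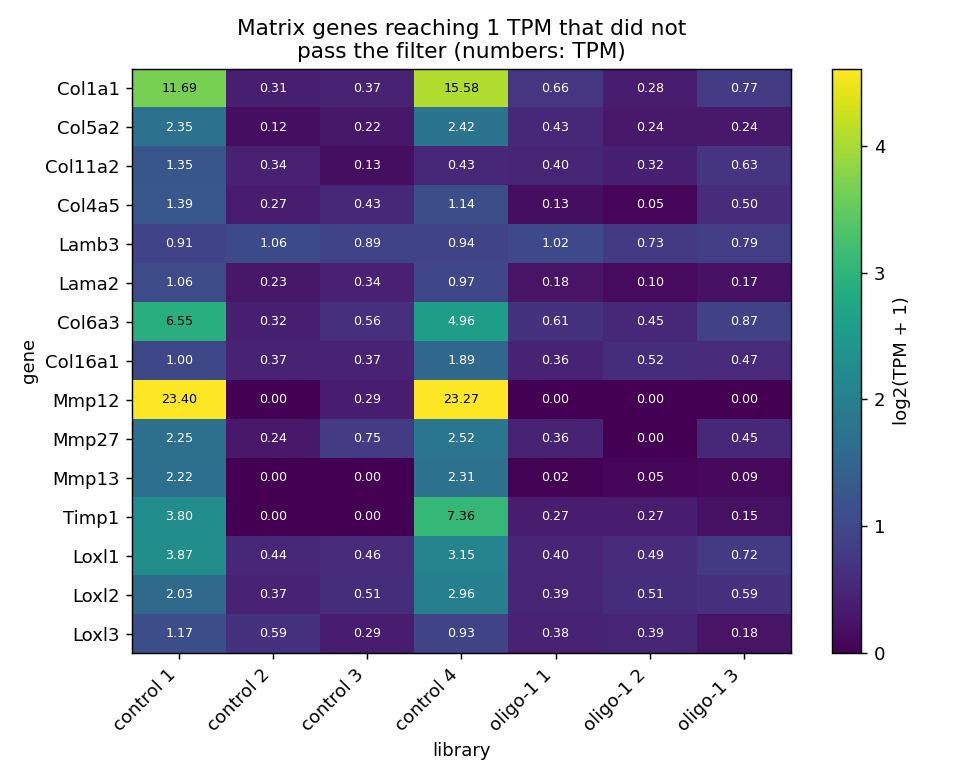
The 15 matrix genes that reached 1 TPM in some library but did not pass the filter, 1 row for each gene and 1 column for each library, coloured by log2(TPM + 1) with the TPM written in each cell. All but Lamb3 reach 1 TPM only in controls 1 and 4, with Mmp12 at 23.4 and 23.3 TPM there.

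Col18a1, the chain of type XVIII collagen whose cut end is endostatin, was the most abundant matrix transcript in every liver. It lies on chromosome 10, 77052178 to 77166548 (mm10), and is known to be made largely by hepatocytes in liver. Its level was 153, 192, 193 and 146 TPM in controls 1 to 4 and 165, 200 and 161 TPM in oligo-1 replicates 1 to 3. The groups overlapped, and controls 1 and 4 were the lowest of the 7 libraries. Its log2 fold change was 0.04 (SE 0.17, 95% confidence interval -0.34 to 0.42), and -0.14 without controls 1 and 4. Col18a1 made up 33.1% and 30.9% of the summed member TPM in controls 1 and 4, and 60.5% to 67.8% in the remaining livers.

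Of the 11 fibrillar collagen genes, 8 reached 1 TPM somewhere and 5 were tested. Col3a1, the chain of type III collagen (chromosome 1, 45311538 to 45349706), was at 38.7, 1.99, 5.85 and 60.0 TPM in controls 1 to 4. The oligo-1 livers held 3.70, 4.44 and 5.07 TPM. The oligo-1 values lay between those of controls 2 and 3, far below controls 1 and 4. The control mean was 26.7 ± 27.7 TPM (SD, n = 4) and the oligo-1 mean 4.40 ± 0.68 TPM (SD, n = 3), which gave a log2 difference of -1.47 (SE 0.91, 95% confidence interval -3.52 to 0.57, limma adjusted p = 0.77). Without controls 1 and 4 it was 0.25, with an interval from -0.52 to 1.01.

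The 2 chains of type I collagen, the main fibre of scar tissue, had the same pair of highest libraries. Col1a1 was at 11.7, 0.31, 0.37 and 15.6 TPM in controls 1 to 4 and at 0.66, 0.28 and 0.77 TPM with oligo-1. It reached 1 TPM in 2 libraries and was not tested. With the filter lowered to 2 libraries the limma fit gave a log2 difference of -1.50 with an unadjusted p of 0.124. Col1a2 (chromosome 6, 4504814 to 4541544) was at 13.4, 1.33, 1.04 and 14.9 TPM in the controls and 1.52, 1.16 and 2.02 TPM with oligo-1. Both chains were high in controls 1 and 4 alone, and the oligo-1 livers overlapped controls 2 and 3. For Col1a2 the fitted difference was -1.18 on the log2 scale (SE 0.73, limma adjusted p = 0.77) and 0.22 without controls 1 and 4.

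Type V collagen sets the width of type I fibrils, and its chains did not all follow type I. Col5a1 stood at 5.29 and 6.55 TPM for controls 1 and 4, 1.43 and 0.78 TPM in controls 2 and 3, and 1.40 to 2.22 TPM with oligo-1. Col5a2 reached 2.35 and 2.42 TPM in controls 1 and 4 and stayed at or below 0.43 TPM elsewhere. Col5a3 (chromosome 9, 20770050 to 20815067) was at 10.3, 5.53, 5.65 and 8.62 TPM in the controls and 13.7, 7.52 and 8.65 TPM with oligo-1. All 3 oligo-1 livers lay above controls 2 and 3 and overlapped controls 1 and 4, and Col5a3 was the second most abundant fibrillar gene by its mean over the 7 libraries. Its log2 fold change was 0.36 (SE 0.28) over all libraries and 0.69 without controls 1 and 4 (95% confidence interval 0.11 to 1.28, limma adjusted p = 0.432).

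Col27a1, a fibrillar collagen best known from cartilage, ran opposite to types I and III. It lies on chromosome 4, 63214004 to 63334991. Its level was 1.08, 5.0, 2.45 and 0.78 TPM in controls 1 to 4 and 5.57, 4.13 and 5.64 TPM in the oligo-1 livers. Control 2 lay inside the oligo-1 range and the other controls below it, with controls 1 and 4 lowest. The fitted log2 fold change was 1.04 (SE 0.40, 95% confidence interval 0.15 to 1.93, limma unadjusted p = 0.0271 and adjusted p = 0.768). It was 0.87 without control 1, 0.79 without control 4, 0.98 without the first oligo-1 liver and 0.97 without the third, each at a limma p above 0.05. It was 1.38 without control 2, 1.11 without control 3 and 1.16 without the second oligo-1 liver, each at a limma p below 0.05. With controls 1 and 4 both left out it was 0.42.

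Upstream sequences are shown for 2 genes that were high together in controls 1 and 4, Col3a1 and Col1a2, and for Col27a1, which was low there. They are the 250 bases before the annotated start, 5′ to 3′ on the gene's strand, from RefSeq on GRCm38.p6, with capitals for matches on either strand to the TATA box (TATAAA), the CCAAT box (CCAAT) and the GC box (GGGCGG), none of which overlap one another.
Col3a1 chr1:45311288-45311537 (+): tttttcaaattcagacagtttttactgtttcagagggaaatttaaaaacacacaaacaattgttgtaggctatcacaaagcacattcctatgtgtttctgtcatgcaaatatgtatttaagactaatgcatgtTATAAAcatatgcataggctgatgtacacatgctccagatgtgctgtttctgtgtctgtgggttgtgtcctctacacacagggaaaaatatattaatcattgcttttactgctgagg
Col1a2 chr6:4505368-4505617 (+): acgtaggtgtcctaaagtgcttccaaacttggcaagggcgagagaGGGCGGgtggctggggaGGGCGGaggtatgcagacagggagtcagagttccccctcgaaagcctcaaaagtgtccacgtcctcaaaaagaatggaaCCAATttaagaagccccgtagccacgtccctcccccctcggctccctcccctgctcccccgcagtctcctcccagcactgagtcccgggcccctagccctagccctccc
Col27a1 chr4:63215162-63215411 (+): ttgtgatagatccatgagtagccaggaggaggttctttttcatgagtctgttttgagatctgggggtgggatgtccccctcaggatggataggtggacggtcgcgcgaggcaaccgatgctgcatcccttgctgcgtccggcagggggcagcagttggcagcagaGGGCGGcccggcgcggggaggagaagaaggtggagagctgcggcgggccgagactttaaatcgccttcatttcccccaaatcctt
Col3a1 held TATAAA at position -117 counted from the start and no GC box, Col1a2 held 2 GC boxes and 1 CCAAT box, and Col27a1 held 1 GC box. Of all 32851 RefSeq promoter windows of this length, 12.4% held TATAAA, 33.8% CCAAT and 32.7% GGGCGG. Of the 70 windows of the 63 members that matched, 18.6%, 28.6% and 48.6% did. A match describes letters and not a bound factor. The RefSeq starts of Col1a2 and Col27a1 differ from the gene positions given above, which are from GENCODE. Their windows fall inside those positions, whereas that of Col3a1 ends just before its gene.

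Among the members lower with oligo-1, the smallest p belonged to a basement membrane gene. Col4a1 and Col4a2 encode the chains of the common type IV collagen network and lie head to head on chromosome 8 (Col4a1 11198423 to 11312826, Col4a2 11312805 to 11449287), on opposite strands with overlapping first exons. Col4a1 was at 17.8, 3.80, 6.16 and 20.2 TPM in controls 1 to 4 and 2.89, 3.03 and 4.78 TPM with oligo-1. Oligo-1 replicate 3 lay between controls 2 and 3, and the other 2 oligo-1 livers lay below all controls. The log2 fold change was -1.27 (SE 0.50, 95% confidence interval -2.39 to -0.14, limma unadjusted p = 0.0309 and adjusted p = 0.768). The unadjusted p was above 0.05 without control 1 (log2 fold change -1.0), control 4 (-0.94), the first oligo-1 liver (-1.16) or the second (-1.19). Over all omissions of 1 library the log2 fold change ranged from -1.66 to -0.94. With controls 1 and 4 both left out the value was -0.38, with an interval from -1.0 to 0.23.

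Col4a2 followed its neighbour with a smaller difference. Its level was 7.99, 2.14, 2.79 and 7.35 TPM in the controls and 1.97, 2.35 and 2.90 TPM with oligo-1. The oligo-1 values overlapped controls 2 and 3, and the fitted log2 difference of -0.69 (SE 0.39, limma adjusted p = 0.768) was -0.03 without controls 1 and 4. The overlap of the pair is short (a gap of -22 bases). Without strand, reads from it could be assigned to either gene. Summed over the 6 type IV chains, the level was 27.8, 6.55, 9.46 and 29.3 TPM in controls 1 to 4 and 5.09, 5.77 and 8.68 TPM with oligo-1.

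Col15a1, a basement membrane collagen of vessel walls and the nearest relative of Col18a1, was higher with oligo-1 by value. It lies on chromosome 4, 47208161 to 47313167. It was at 1.65, 0.80, 1.0 and 1.48 TPM in the controls and 2.39, 1.46 and 2.69 TPM with oligo-1. Oligo-1 replicates 1 and 3 lay above all controls, and replicate 2 lay below controls 1 and 4 only. The log2 fold change was 0.50 (SE 0.24, 95% confidence interval -0.04 to 1.05, limma adjusted p = 0.768) and 0.72 without controls 1 and 4 (interval 0.16 to 1.28, adjusted p = 0.391). These levels are close to the filter of 1 TPM.

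Of the 11 laminin chains, which form cross-shaped trimers of an alpha, a beta and a gamma chain, 3 were tested. Lamc1, the gamma chain of most laminins (chromosome 1, 153218922 to 153332786), was at 8.31, 3.10, 4.73 and 6.36 TPM in the controls and 2.71, 3.02 and 3.55 TPM with oligo-1. The oligo-1 values overlapped control 2 alone, with a log2 difference of -0.64 (SE 0.29, limma adjusted p = 0.768) and -0.25 without controls 1 and 4. Lamb1 had a log2 fold change of -0.50 (0.14 without controls 1 and 4) and Lamb2 of -0.26 (-0.04). No alpha chain passed the filter. Lama2, the alpha chain of laminins best known from muscle, reached 1 TPM in control 1 alone and was not tested. It was at 1.06, 0.23, 0.34 and 0.97 TPM in the controls and 0.18, 0.10 and 0.17 TPM with oligo-1. All 3 oligo-1 values lay below all 4 control values, controls 2 and 3 included. Without a filter the limma fit gave a log2 difference of -0.49 (SE 0.20, unadjusted p = 0.0418 and adjusted p = 0.809). Among the 62 untested members Col25a1 alone also had groups that did not overlap. It was at 0 to 0.0187 TPM with oligo-1 and 0.0189 to 0.109 TPM in the controls, levels close to 0. The share of all untested genes with such groups was not counted, so Lama2 and Col25a1 are given as values only.

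Set side by side, the fibrillar and the basement membrane genes had the same high pair of libraries, and Col18a1 was what separated their totals. The fibrillar sum was 84.4, 16.1, 16.5 and 109 TPM in controls 1 to 4 and 27.5, 20.4 and 25.3 TPM with oligo-1. The 19 basement membrane collagens and laminins summed to 201, 208, 213 and 193 TPM in the controls and 181, 215 and 181 TPM with oligo-1, nearly level across all 7 livers. Without Col18a1 the latter became 47.8, 15.6, 20.6 and 47.9 TPM in the controls and 16.6, 15.0 and 20.2 TPM with oligo-1. The oligo-1 livers therefore lay near controls 2 and 3 in the basement membrane sum, and above both of them in the fibrillar sum. Of the 5 tested fibrillar genes, Col5a3 alone lay above both in all 3 oligo-1 livers, at 13.7, 7.52 and 8.65 TPM beside 5.53 and 5.65. The others, Col3a1 and Col1a2 among them, overlapped controls 2 and 3. The ratio of basement membrane without Col18a1 to fibrillar TPM was 0.57, 0.97, 1.25 and 0.44 in controls and 0.60, 0.74 and 0.80 with oligo-1, so the oligo-1 ratios fell inside the control range.

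The median fold changes of both groups were negative over all libraries and differed in sign without controls 1 and 4. The median log2 fold change was -0.37 for the 5 tested fibrillar genes and -0.50 for the 7 tested basement membrane collagens and laminins, beside -0.16 over all genes. Without controls 1 and 4 all 5 fibrillar genes were positive, with a median of 0.42, whereas the basement membrane genes were 2 positive and 5 negative, with a median of -0.04, beside 0.06 over all genes. These medians are descriptions of few genes, and the difference between the groups was not tested.

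**Figure D3:**
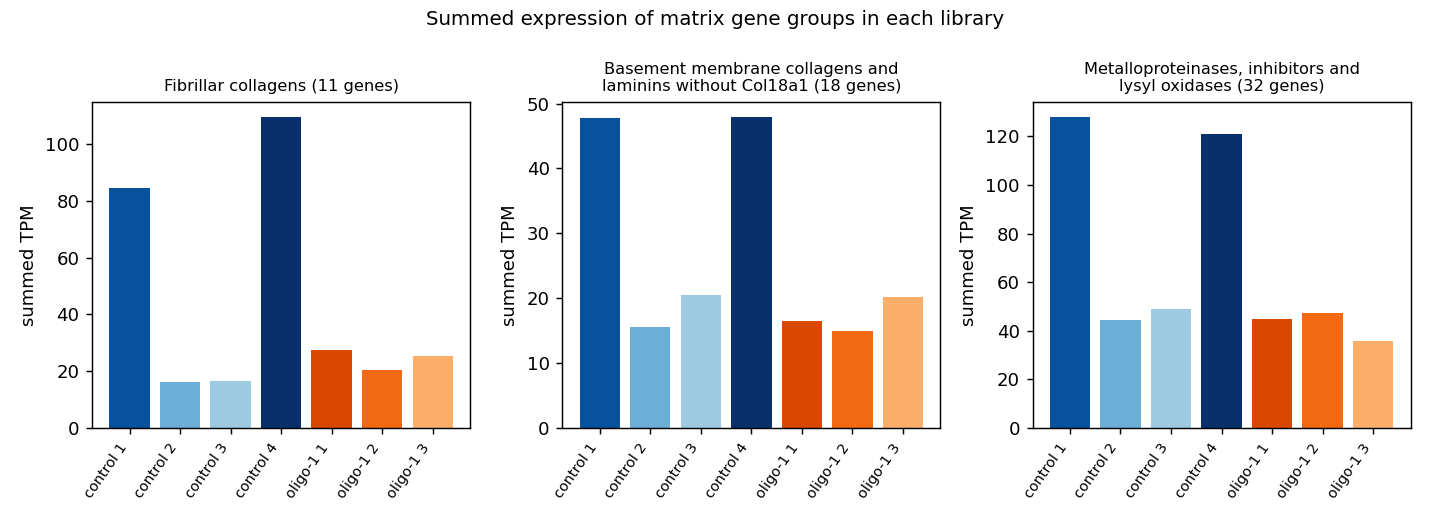
Summed TPM of fibrillar collagens, of basement membrane collagens and laminins without Col18a1, and of matrix enzymes and inhibitors, 1 bar for each library (blue, control oligo; orange, oligo-1). In all 3 panels controls 1 and 4 are more than 2 times as high as any other library.

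Type VI collagen and Col14a1 were also highest in controls 1 and 4, unlike Col20a1 and Col13a1. Col6a1, Col6a2 and Col6a3 encode the chains of type VI collagen, a beaded filament around cells. Col6a1 (chromosome 10, 76708792 to 76726168) was at 10.1, 1.57, 0.73 and 7.37 TPM in the controls and 2.18, 1.15 and 1.94 TPM with oligo-1. Its log2 fold change was -0.73 (SE 0.60) and 0.37 without controls 1 and 4, and Col6a2 went from -0.61 to 0.31 in the same way. Col14a1, a fibril-associated collagen made by portal and stellate fibroblasts, was at 22.5, 7.05, 7.03 and 26.2 TPM in the controls and 8.89, 7.20 and 9.74 TPM with oligo-1. All oligo-1 livers lay above controls 2 and 3 and below controls 1 and 4, and the fitted log2 difference of -0.58 (SE 0.45) became 0.25 without controls 1 and 4. Col20a1 (0.35) and the transmembrane collagen gene Col13a1 (0.39) had positive log2 fold changes, with controls 1 and 4 not above the other libraries. Without those controls the values were 0.17 and 0.06.

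**Figure D4:**
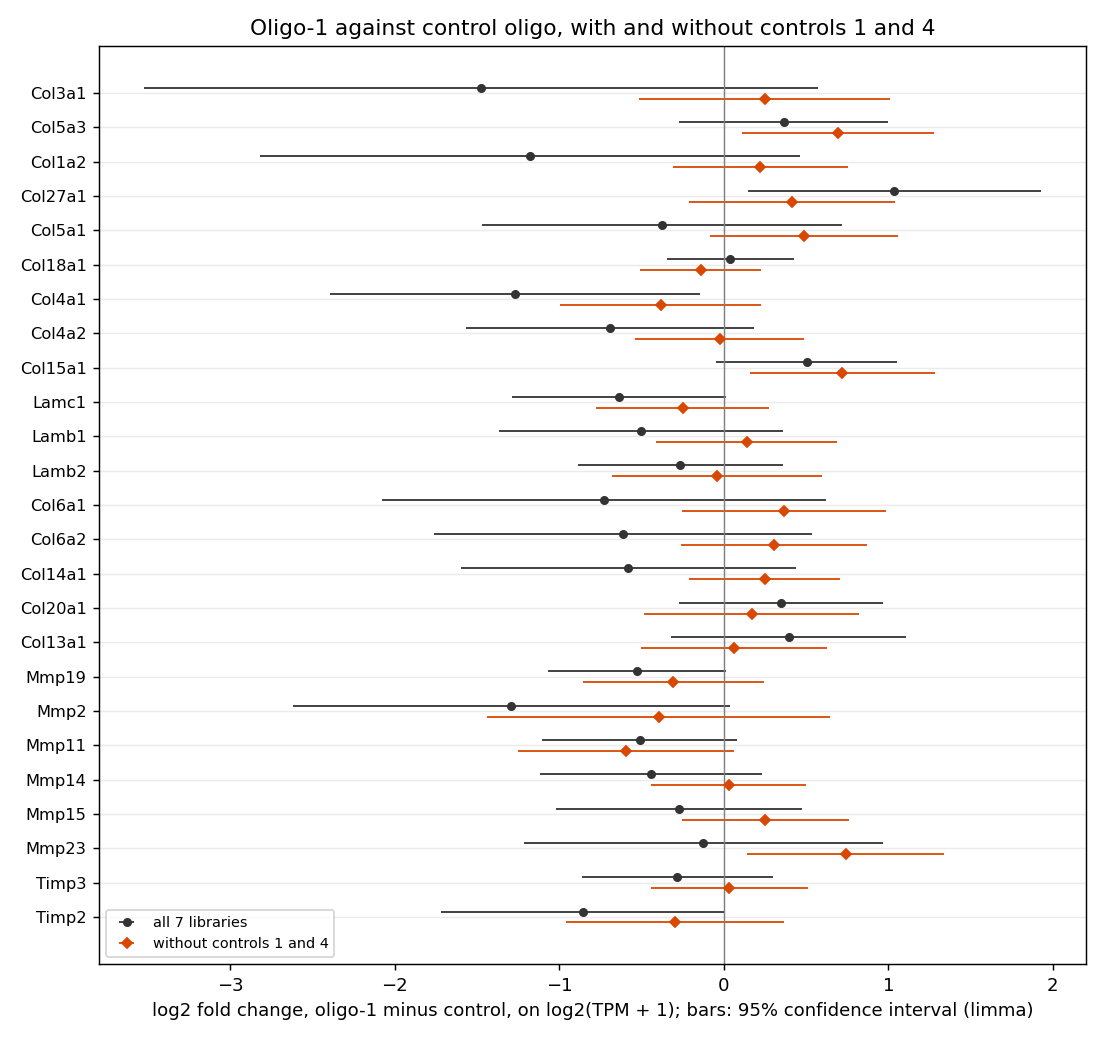
Log2 fold change of each tested matrix gene, oligo-1 minus control, on log2(TPM + 1) with its 95% confidence interval from limma, over all 7 libraries (black circles) and without controls 1 and 4 (orange diamonds). The intervals of Col27a1 and Col4a1 exclude 0 over all libraries and those of Col5a3, Col15a1 and Mmp23 without controls 1 and 4; all 5 have adjusted p values above 0.05.

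Of the 16 secreted metalloproteinases, 3 were tested, and the 2 with the sharpest split were not. Mmp12, the elastase of macrophages (chromosome 9), stood at 23.4 and 23.3 TPM for controls 1 and 4, 0.29 TPM in control 3, and was listed at 0 in control 2 and in all 3 oligo-1 livers. Mmp13, the main collagenase of rodents (chromosome 9), stood at 2.22 and 2.31 TPM for controls 1 and 4, was listed at 0 in controls 2 and 3, and at 0.02, 0.05 and 0.09 TPM with oligo-1. With the filter lowered to 2 libraries, the log2 fold change of Mmp13 was -0.78, and none is given for Mmp12, since the oligo-1 livers were all listed at 0. Both transcripts thus passed 1 TPM in controls 1 and 4 alone.

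Mmp12 and Mmp13 belong to a run of metalloproteinase genes on chromosome 9. The window of Mmp13 and 1 of the 2 windows of Mmp12 held the AP-1 motif (TGAGTCA or its reverse complement TGACTCA). This motif is the known response site of the inducible metalloproteinases. The sequences are shown because these genes had the sharpest library split. The Mmp12 window was chosen for its match and lies inside the gene's GENCODE position. The windows hold 250 bases before the start, as above, with capitals for AP-1 and TATAAA matches; for Mmp12 the second of 2 annotated starts is shown, since the first window held none of the 4 motifs searched.
Mmp12 chr9:7347124-7347373 (+): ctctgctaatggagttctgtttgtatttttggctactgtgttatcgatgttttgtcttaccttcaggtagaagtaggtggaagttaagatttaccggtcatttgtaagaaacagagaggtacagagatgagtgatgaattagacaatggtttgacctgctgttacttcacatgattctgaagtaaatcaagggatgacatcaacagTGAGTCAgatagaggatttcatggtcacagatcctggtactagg
Mmp13 chr9:7272264-7272513 (+): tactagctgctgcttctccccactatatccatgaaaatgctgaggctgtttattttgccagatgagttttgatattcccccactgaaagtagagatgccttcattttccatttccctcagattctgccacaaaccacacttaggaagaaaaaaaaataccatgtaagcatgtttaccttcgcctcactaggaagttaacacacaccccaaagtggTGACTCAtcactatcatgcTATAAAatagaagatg
The AP-1 match began at position -44 in Mmp12 and at -35 in Mmp13, where TATAAA followed at -16. The motif was in 8 of the 70 member windows (11.4%), against 4.46% of all 32851. These were Col6a1 and 7 metalloproteinase genes of chromosome 9: Mmp1a, Mmp1b, Mmp3, Mmp7, Mmp10, Mmp12 and Mmp13. Of those 7, Mmp1a, Mmp1b and Mmp10 were listed at 0 in every liver, so genes with the match ranged from no listed expression to that of Mmp12.

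Among the tested secreted enzymes the log2 fold changes were negative with and without controls 1 and 4. Mmp2, gelatinase A, which cuts denatured collagen and type IV collagen (chromosome 8, 92827291 to 92853420), was at 7.83, 0.31, 2.52 and 5.29 TPM in the controls and 1.61, 0.26 and 0.33 TPM with oligo-1. The oligo-1 livers lay around control 2 and below the other controls. Its log2 difference was -1.29 (SE 0.59, 95% confidence interval -2.62 to 0.04, limma adjusted p = 0.768) and -0.40 without controls 1 and 4. Mmp19, which cuts basement membrane proteins, was at 23.1, 15.2, 15.5 and 19.4 TPM in the controls and 11.8, 16.5 and 9.34 TPM with oligo-1. On the log2 scale its difference was -0.53 (SE 0.24), or -0.31 without those controls. Mmp11, stromelysin-3, had -0.51 (SE 0.26) and -0.59. Oligo-1 replicate 2 lay inside the control range for Mmp19, and the other 2 oligo-1 livers lay below all controls.

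All 3 tested membrane-bound enzymes were highest in controls 1 and 4. Mmp14, the membrane-anchored activator of Mmp2, was at 19.0, 9.34, 9.72 and 19.5 TPM in the controls and 9.78, 11.7 and 8.08 TPM with oligo-1. Its log2 fold change of -0.44 became 0.03 without controls 1 and 4, and that of Mmp15, a related enzyme, went from -0.27 to 0.25. Mmp23 was at 2.47, 0.14, 0 and 2.62 TPM in the controls and 1.26, 0.41 and 0.79 TPM with oligo-1. Without controls 1 and 4, only oligo-1 replicate 1 reached 1 TPM, so its value in that fit rests on levels near the floor. The oligo-1 values lay between the low and the high pair of controls, and the fitted log2 difference was -0.12 (SE 0.49) over all libraries and 0.74 without controls 1 and 4 (95% confidence interval 0.14 to 1.34, limma adjusted p = 0.41).

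The inhibitors and cross-linking enzymes had the same high pair. Timp1, the inducible inhibitor and a serum marker of liver fibrosis, stood at 3.80 and 7.36 TPM for controls 1 and 4, was listed at 0 in controls 2 and 3, and at 0.27, 0.27 and 0.15 TPM with oligo-1. Timp2 (chromosome 11, 118301069 to 118355740) was at 10.7, 2.51, 5.33 and 8.03 TPM in the controls and 3.44, 2.20 and 2.98 TPM with oligo-1. The fitted difference was -0.86 on the log2 scale (SE 0.38, 95% confidence interval -1.72 to 0.00, limma adjusted p = 0.768), or -0.30 when controls 1 and 4 were left out. For Timp2 the oligo-1 livers lay around control 2 and below the other controls. Timp3, which binds to matrix, had -0.28 and 0.03. The 5 lysyl oxidases summed to 8.38, 1.74, 1.47 and 8.36 TPM in the controls and 1.43, 1.52 and 1.58 TPM with oligo-1, and none passed the filter.

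Genes that make and accompany collagen are given beside the 73.6% of all tested genes that were negative and the 4.25% that were lower at p below 0.05. Of 24 genes for collagen folding and processing, 12 were tested, all with negative log2 fold changes (median -0.45), and 1 had an unadjusted p below 0.05: P4ha2, a proline hydroxylase subunit, at -0.61. Without controls 1 and 4 they were 6 positive and 6 negative, where 58.6% of all tested genes were positive. Of 12 further basement membrane genes, 8 were tested, with a median of -0.27 and 0 below p 0.05. Without controls 1 and 4 their median was 0.16, with 6 positive and 2 negative. Sparc, a collagen-binding glycoprotein, reached 73.1 and 83.3 TPM in controls 1 and 4, with 15.6 to 20.4 TPM in the remaining livers. Of 21 proteoglycans and fibril-binding proteins, 9 were tested, with a median of -0.65 and 0 below p 0.05. Their median was 0.02 without controls 1 and 4, with 6 positive and 3 negative. Decorin (Dcn), which coats collagen fibrils, reached 257 and 209.5 TPM in controls 1 and 4 and 72.6 to 85.7 TPM elsewhere.

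Markers of other liver cells moved with controls 1 and 4. The 14 Kupffer cell and macrophage markers summed to 821 and 1040 TPM in controls 1 and 4, 120 and 108 TPM in controls 2 and 3, and 140 to 179 TPM with oligo-1, with C1qa, C1qb and Lyz2 the most abundant and none listed at 0 in all livers. The 14 stellate cell and fibroblast markers summed to 251 and 241 TPM in controls 1 and 4, 147 and 125 TPM in controls 2 and 3, and 131 to 151 TPM with oligo-1. Of the tested genes, 12 of 13 macrophage markers and 9 of 10 stellate cell markers had controls 1 and 4 above all other libraries, against 51.5% of all tested genes. In 3 of the 10 stellate cell markers all oligo-1 values lay below all control values, against 4.98% of all tested genes, and 2 were lower at an unadjusted p below 0.05 (limma), against 4.25%. In 0 of the 13 macrophage markers did either hold. In bulk tissue fewer cells of a type and less RNA per cell cannot be told apart. The part of these cells in the matrix values was not tested.

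Other cell types followed controls 1 and 4 to differing degrees. The 16 endothelial markers summed to 210, 139, 135 and 171 TPM in controls 1 to 4 and 157 to 184 TPM with oligo-1, and 4 of 16 had controls 1 and 4 on top. The 10 cholangiocyte markers summed to 59.0, 27.7, 27.3 and 60.6 TPM in the controls and 32.2, 29.8 and 61.0 TPM with oligo-1, carried by Spp1. The 12 neutrophil markers summed to 2.12 to 15.9 TPM, highest in control 3. The sum of 9 mesothelial markers, 676 and 911 TPM in controls 1 and 4 and 181 to 263 TPM elsewhere, came almost wholly from the keratins Krt8 and Krt18, which hepatocytes also express, and no other mesothelial marker exceeded 1.3 TPM. The 12 hepatocyte markers summed to between 106600 and 126180 TPM in all livers and none was listed at 0. Of 12 markers of fat, muscle and pancreas, Cela1 alone reached 1 TPM, at 27.6 to 51.9 TPM.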

How the data were processed

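Hepatic total RNA of 4 control and 3 oligo-1 mice was extracted with TRIzol, and libraries followed standard Illumina procedure. The authors quantified protein-coding genes with kallisto and deposited TPM values, length-corrected shares of each library. The submitters' processing notes name mm10, and strand use and the kallisto version are not given in the sources used here. Depth cannot be read from TPM and is unknown, and intervals for counting error are left out. Listed genes held 85.8% to 88.3% of each library's TPM. The authors used edgeR on counts, which were not used here.

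Values were transformed to log2(TPM + 1), which understates changes of low genes, and the 10455 genes that reached 1 TPM in 3 or more libraries were tested. limma-trend (limma 3.58.1, R 4.3.3) compared oligo-1 with control, 2-sided and without covariates, with Benjamini-Hochberg adjustment over all genes. Groups and replicate numbers came from the library names, and the labels give no batch. Positions are from GENCODE M21, in which 86 of 87 members were found. The members, gene lists, tests and the omission of controls 1 and 4 were chosen with earlier results of these data known, and no list was tested. All tested members could be named. Per-library values followed mean level and p within each list, and Col1a1, Col1a2, Col3a1, Timp1 and Mmp2 were always given. Alternatives were the pseudocount, the filter, TMM-type scaling, the total, the trend, the replicate block and omission of libraries. The fit was tested on simulated data.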

Additional observations from a re-analysis of the deposited data

How the results depend on the processing

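Of the 25 tested matrix genes, 12 changed sign without controls 1 and 4, an omission that also ended both unadjusted calls. The log2 fold change was then -0.14 for Col18a1, 0.25 for Col14a1, 0.029 for Mmp14, 0.035 for Timp3, 0.25 for Col3a1, 0.25 for Mmp15, 0.49 for Col5a1, 0.22 for Col1a2, 0.37 for Col6a1, 0.31 for Col6a2, 0.14 for Lamb1 and 0.74 for Mmp23. All-gene calls at p below 0.05 were then 729 higher and 287 lower, with 1 past the adjusted threshold (limma), matrix genes were 3 higher and 0 lower, and the medians were 0.42 for fibrillar and -0.043 for basement membrane genes.

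Under other settings, 2 genes changed sign. Mmp23 was at 0.41 with a pseudocount of 0.1 and at 0.034 with TMM-type scaling. With 1 library left out, Col18a1 ranged from -0.058 to 0.10 and Mmp23 from -0.44 to 0.17. All-gene calls rose to 327 higher without a filter and 502 higher with TMM-type scaling. Matrix genes were 3 higher with TMM-type scaling. They were 2 lower without a filter and with a filter of 2 libraries, and 3 lower with TMM-type scaling and without the trend. The cause was not tested.

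With each library left out in turn, the count over all genes was 0 to 29 past the adjusted threshold (29 without control 3), 111 to 279 higher and 185 to 1521 lower (1521 without control 2). For matrix genes it was 0 to 2 higher and 0 to 7 lower, with 7 lower without control 2, 5 without control 3 and 0 without control 1 or control 4. The medians ranged from -0.74 to -0.04 for fibrillar genes, -0.68 to -0.27 for basement membrane genes and -0.59 to -0.33 for enzymes and inhibitors.

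The labels do not say whether the replicate numbers pair the mice, and deviations from the means of so few libraries cannot settle it. Deviations of same-numbered libraries correlated at 0.0777, -0.0154 and -0.1146, and not every library correlated best with its own number. With the number as a replicate block, 86 genes but no matrix gene passed the adjusted threshold (limma), and matrix genes were 1 higher and 2 lower at p below 0.05. Col18a1 was at -0.033 and Mmp23 at 0.17. Control 4 has no partner in the block and so adds nothing to it, and these 2 values equal those without control 4.

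TPM near the filter of 1 limits most matrix genes, and 62 of 87 were not tested. With 2 control libraries left, the fit without controls 1 and 4 rests on 5 livers.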

Other observations

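The 2 chains of type I collagen are built into the same triple helix, and their ratio differed between libraries. The TPM of Col1a1 divided by that of Col1a2 was 0.87 and 1.04 in controls 1 and 4, 0.23 and 0.36 in controls 2 and 3, and 0.43, 0.24 and 0.38 in oligo-1 replicates 1 to 3. Outside controls 1 and 4, Col1a1 was at 0.28 to 0.77 TPM and Col1a2 at 1.04 to 2.02 TPM. The lower ratios thus rest on values near the floor. For the type IV pair, Col4a1 divided by Col4a2 was 2.23 and 2.75 in controls 1 and 4, 1.78 and 2.21 in controls 2 and 3, and 1.47, 1.29 and 1.65 with oligo-1, so all 3 oligo-1 ratios lay below all 4 control ratios. For the type VI pair, Col6a1 divided by Col6a2 lay between 1.17 and 2.17 in all livers, with the groups overlapping. These ratios were chosen after the values were seen, and no test was made of them.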
